A study of Drosophila melanogaster with 5 samples.

Results

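The genes of the bone morphogenetic protein (BMP) pathway that act in the germline stem cell niche were followed in RNA-seq of whole Drosophila melanogaster ovaries. The members were 10 named genes, found by an exact match of the gene symbol among 14094 genes in the table. They are the ligands dpp and gbb, the receptors tkv, sax and put, the Smad proteins Mad, Med and Dad, and the regulators shn and Smurf. All 10 had enough counts to be tested. The samples were ovaries of adult flies dissected 1 to 3 days after eclosion, as 2 libraries of the genotype BEAF 32-AB KO, called the knockout here, and 3 libraries of the control genotype nosGAL4;MKRS/TM6, titled as wild type. nosGAL4 is a driver that expresses the yeast activator GAL4 in the germline, and MKRS and TM6 are balancers of chromosome 3. The knockout label names neither, so other differences between the stocks and the alteration of BEAF-32 cannot be told apart. This holds for all 10 members, of which put, Med and Dad lie on chromosome arm 3R and the others on 2L or 2R. The altered gene, BEAF-32, encodes an insulator factor found at many promoters, and what the knockout removes of it is not given in the labels.

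In the ovary, Dpp and Gbb are secreted by somatic cells at the tip of the germarium and reach the germline stem cells that touch them. There they bind a receptor complex of the type I receptors Thickveins (tkv) and Saxophone (sax) with the type II receptor Punt (put), which phosphorylates Mad. Phosphorylated Mad enters the nucleus with its partner Medea (Med) and, with the zinc finger protein Schnurri (shn), represses the differentiation gene bam. Dad is an inhibitory Smad whose own gene is switched on by the pathway, and Smurf is a ubiquitin ligase that limits the signal in the daughter cell. The same ligands also act later in the follicular epithelium.

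Levels are given in CPM, the counts of a gene per 1000000 counts of its library, as mean ± SD over the 2 knockout libraries (n = 2) or the 3 controls (n = 3). Every fold change is on the log2 scale and is positive where the knockout is higher, and SE is its standard error. A gene was called at an adjusted p under 0.05 by edgeR's quasi-likelihood test, Benjamini-Hochberg adjusted over all 9241 tested genes, and every adjusted p below comes from that test unless another is named. Separate groups of flies are not stated in the labels, so p-values measure only the spread between these libraries, which may be technical. In a bulk sample, fewer cells of a type and less RNA per cell cannot be told apart.

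The libraries differed in depth and in their composition. Estimated counts summed to 38820176 and 47805964 for knockout 1 and 2 and to 41105107 for control 1, but only to 8448850 and 10388643 for controls 2 and 3. Control 1 also stood apart from the other controls on the second principal component, which took 11.7% of the variance. The first component, with 78.7%, separated the genotypes. On it control 1, at 43.6, lay nearer to the knockout libraries (-116 and -110) than controls 2 and 3 did (98.4 and 84.0). BEAF-32 itself was at 50.2 and 52.8 CPM in the knockout libraries and at 84.9, 136 and 144 CPM in the control, and was called lower (log2 fold change -1.19, SE 0.26, adjusted p = 0.0157). Of all tested genes 41.5% were called, 22.7% higher and 18.7% lower.

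Of the 10 BMP genes, dpp, gbb and Dad rose in the knockout, Mad fell, and tkv, sax, put, Med, shn and Smurf were not called. These 4 calls of 10 stand beside the background of 41.5% called over all genes, so the share of called members was near that of any gene. The median log2 fold change of the members was 0.50, and that of all tested genes was 0.11. For 6 members the knockout and control libraries did not overlap, 5 higher and 1 lower, where 68.1% of all tested genes did not overlap (37.6% higher and 30.5% lower). The same reading holds in the other fits. The calls numbered 7 of 10 members without control 1, where 68.6% of all tested genes were called, and 1 of 10 without knockout 1 (9.46%) or without knockout 2 (11.1%). They numbered 6 with depth class in the model (54.7%), 5 with the trend of each library with exon length removed (51.2%), 5 with DESeq2 (49.9%) and 4 with limma-voom (47.7%). With other scalings 4 were called, by library totals (40.8%), RLE (41.4%) or germline markers (40.5%). There were 4 with the replicate number as a block (35.3%), 3 with no filter on low counts (28.6%), and 2 without control 2 (31.4%) or control 3 (32.1%).

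**Figure D1:**
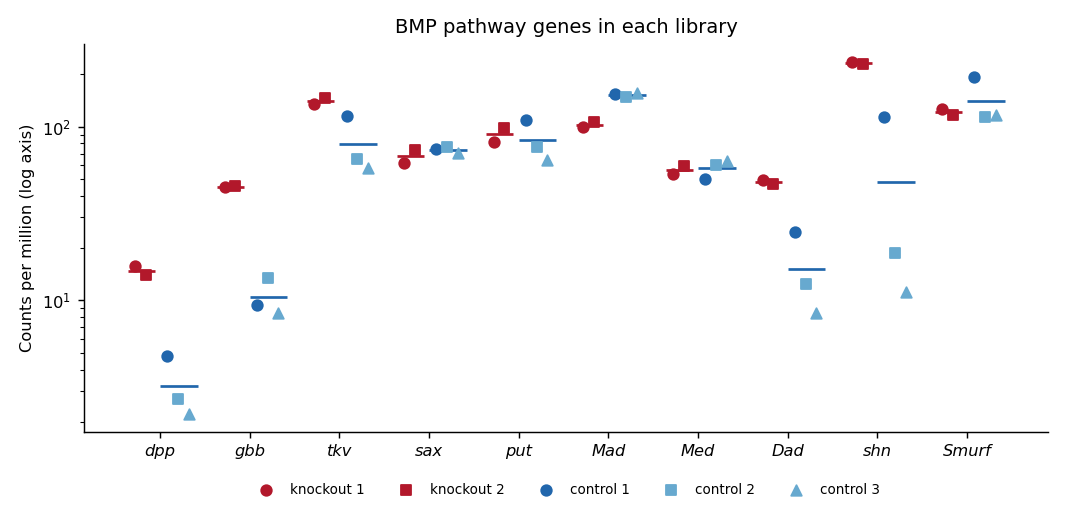
CPM (log axis) of the 10 BMP pathway genes in each of the 5 libraries, with knockout libraries in red and control libraries in blue, and a line at each group mean. Both knockout points lie above all control points for dpp, gbb, tkv, Dad and shn and below them for Mad, and control 1 lies well above controls 2 and 3 for shn and Dad.

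Both ligand genes rose in the knockout, with estimated differences of 4.62-fold for dpp and 4.49-fold for gbb. The gene dpp (FBgn0000490, chromosome arm 2L, 2428372 to 2459823, plus strand, dm6) encodes the fly counterpart of vertebrate BMP2 and BMP4. It was at 15.7 and 14.0 CPM in the knockout libraries and at 4.77, 2.72 and 2.21 CPM in controls 1, 2 and 3. The knockout libraries lay close together and above every control. The group levels were 14.8 ± 1.20 and 3.23 ± 1.35 CPM. They differed by 2.21 on the log2 scale (SE 0.41, adjusted p = 0.00973), and the 95% interval of the fold ran from 2.29 to 9.30. The size depended on the control library: the log2 fold change was 2.65 without control 1 and 1.66 with depth class in the model. Depth limits the control value, because controls 2 and 3 each held 23 dpp counts. Their exact Poisson 95% intervals, which cover counting error only, ran from 1.73 to 4.08 CPM and from 1.40 to 3.32 CPM, and neither reached the 13.0 CPM at the lower end of the interval of knockout 2. Leaving out knockout 1 (2.01, adjusted p = 0.118) or knockout 2 (2.36, adjusted p = 0.0710) ended the call.

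The second ligand gene, gbb (FBgn0024234, 2R, 23851562 to 23853247, plus strand), encodes glass bottom boat, a BMP of the BMP5 to BMP8 kind that supports Dpp signalling in stem cell maintenance. It was at 44.8 and 45.4 CPM in the knockout libraries and at 9.41, 13.4 and 8.47 CPM in the control. The knockout libraries were nearly equal and the controls did not approach them. At 45.1 ± 0.42 against 10.4 ± 2.60 CPM the log2 fold change was 2.17 (SE 0.23, adjusted p = 0.00161), a 4.49-fold difference (95% interval 3.05 to 6.61). Of the 10 members, gbb was the only one called in the same direction under every one of the 14 alternative settings that were run. Its fold change was 2.11 without control 1 and 2.28 with depth class in the model, a fit in which the knockout is set against control 1 alone.

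None of the receptor genes was called. For tkv (FBgn0003716, 2L, 5219000 to 5271384, minus strand), the type I receptor that carries most of the Dpp signal, the values were 135 and 146 CPM in the knockout libraries and 114, 65.2 and 57.9 CPM in the control. The genotypes did not overlap, but control 1 lay nearer to the knockout than to the other controls. The levels of 140 ± 7.37 and 79.2 ± 30.7 CPM differed by 0.86 (SE 0.32, adjusted p = 0.0788), with a 95% interval from 0.07 to 1.65. Without control 1 the difference was 1.24 and tkv was called higher (adjusted p = 1.33e-05), and with scaling over germline markers it was also called (1.13, adjusted p = 0.0262). With depth class as a term it was 0.31 (adjusted p = 0.0772). Exons of tkv overlap those of CR14033 over 158 bases and those of TpnC25D over 54 bases, both on the opposite strand, together 4.78% of its exon length. CR14033 was at 70.9, 45.1 and 43.1 CPM in the control and at 0.62 and 0.82 CPM in the knockout. The counting's strand setting is not given in the sources used here, so reads in that stretch may belong to either gene.

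The type I receptor gene sax (FBgn0003317, 2R, 7806484 to 7810067, plus strand), whose product prefers Gbb as ligand, was at 61.6 and 73.7 CPM in the knockout. The controls were at 74.8, 76.1 and 70.3 CPM, so knockout 2 lay inside their range and knockout 1 below it. The log2 fold change was -0.08 (SE 0.15, adjusted p = 0.664), and its 95% interval, -0.44 to 0.27, leaves out a change of 1.5-fold in either direction. For put (FBgn0003169, 3R, 14619030 to 14625703, minus strand), the type II receptor shared by BMP and activin signalling, the values were 81.5 and 98.6 CPM in the knockout libraries and 109, 76.6 and 64.4 CPM in the control. The knockout values lay inside the range of the controls. The difference was 0.15 (SE 0.26, adjusted p = 0.674, 95% interval -0.49 to 0.78). Without control 1 it passed as higher (0.40, adjusted p = 0.0182), and it was at -0.26 with depth class in the model (adjusted p = 0.161), so its direction depended on the control library.

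Among the Smad genes, Mad fell, Dad rose, and Med was not called. Mad (FBgn0011648, 2L, 3146056 to 3159643, minus strand), the receptor-regulated Smad of the pathway, was at 99.7 and 106 CPM in the knockout libraries and at 154, 148 and 156 CPM in the control. All controls lay together above both knockout libraries, control 1 included. At 103 ± 4.33 against 153 ± 4.46 CPM the log2 fold change was -0.53 (SE 0.15, adjusted p = 0.0358), or 0.692 times the control level (95% interval 0.535 to 0.895). The call did not hold with knockout 1 left out (-0.60, adjusted p = 0.211), with knockout 2 left out (-0.51, adjusted p = 0.236), without control 2 (-0.65, adjusted p = 0.0600) or control 3 (-0.57, adjusted p = 0.0840), and with scaling over germline markers (-0.27, adjusted p = 0.327).

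Med, which encodes the common partner Smad (FBgn0011655 in the table, 3R, 31611046 to 31615375, plus strand), was at 53.6 and 59.3 CPM in the knockout. It was at 49.9, 60.0 and 63.3 CPM in the control, on both sides of the knockout values. The difference on the log2 scale was 0.01 (SE 0.16, adjusted p = 0.964), with a 95% interval from -0.39 to 0.41. Its exons overlap genes on the opposite strand, CycG and Mnat9, over 423 bases, or 12.4% of its exon length, and CycG was at 991 and 1100 CPM in the knockout libraries and at 723, 580 and 540 CPM in the control.

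The inhibitory Smad gene Dad (FBgn0020493, 3R, 17054007 to 17070408, plus strand), widely used as a reporter of BMP signalling in germline stem cells, was at 49.3 and 46.5 CPM in the knockout. The controls held 24.7, 12.4 and 8.47 CPM. The knockout libraries were above all controls, and control 1 was at 2.37 times the mean of controls 2 and 3. The levels of 47.9 ± 1.98 and 15.2 ± 8.49 CPM differed by 1.67 on the log2 scale (SE 0.44, adjusted p = 0.0291), a 3.18-fold difference (95% interval 1.50 to 6.78). The size depended on the control library: it was 2.26 without control 1 (adjusted p = 9.41e-06) and 0.97 with depth class in the model (adjusted p = 0.00536). The call ended without knockout 1 (1.51, adjusted p = 0.181), knockout 2 (1.78, adjusted p = 0.119), control 2 (1.44, adjusted p = 0.112) or control 3 (1.31, adjusted p = 0.0635), and with no filter on low counts (1.59, adjusted p = 0.0532).

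**Figure D2:**
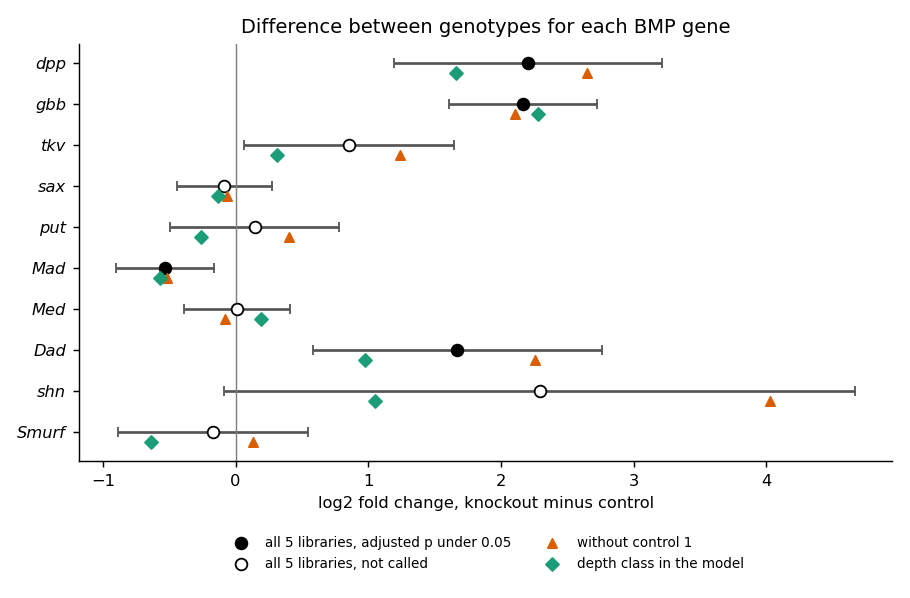
Log2 fold change, knockout minus control, of the 10 BMP genes with 95% intervals from the fit over 5 libraries (filled circles called, open circles not called), and the value without control 1 (triangles) and with depth class in the model (diamonds). The values for gbb and Mad hardly move between the fits, while those for shn run from 1.05 to 4.03.

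The regulators differed most in how far their values could be fixed. The gene shn (FBgn0003396, 2R, 11159086 to 11217394, plus strand), which encodes a large zinc finger cofactor of Mad and Medea, was at 237 and 229 CPM in the knockout libraries and at 114, 18.8 and 11.2 CPM in the control. Both knockout libraries were above all controls, but control 1 was at 7.59 times the mean of the other controls, the widest such gap of the 10 members. The group levels of 233 ± 5.04 and 47.9 ± 57.2 CPM differed by 2.29 (SE 0.96, adjusted p = 0.106), and the 95% interval ran from -0.08 to 4.67. Leaving out control 1 made it called higher (4.03, adjusted p = 1.33e-06), as did depth class in the model (1.05, adjusted p = 0.00568) and DESeq2 (2.30, adjusted p = 0.0310). The direction was the same in all 14 alternatives.

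Smurf (FBgn0029006, 2R, 17592791 to 17604461, plus strand) was at 127 and 116 CPM in the knockout libraries and at 192, 114 and 117 CPM in the control. Controls 2 and 3 lay near the lower knockout value, and control 1 was above both knockout libraries. The log2 fold change was -0.17 (SE 0.29, adjusted p = 0.659, 95% interval -0.89 to 0.54). Against control 1 alone, in the fit with depth class in the model, Smurf was called lower (-0.64, adjusted p = 0.00575), and without control 1 it was at 0.13 (adjusted p = 0.373).

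The gaps between control 1 and the other controls went along with gene length over the whole table. For the 248 tested genes with more than 10000 bases of exon, the median log2 ratio of control 1 to the mean of controls 2 and 3 was 1.18, and for the 1311 genes with up to 1000 bases it was -0.42. Between the knockout libraries the same medians were 0.01 and -0.14. Of the BMP genes, shn has the longest exon length (10997 bases) and a log2 ratio of 2.88, in the 99.3th percentile of tested genes. The shortest, gbb (1686 bases), had a log2 ratio of -0.20. Mad and sax, at 3412 and 2865 bases, had ratios of 0.02 and 0.03, while Dad, at 3906 bases, had a ratio of 1.20, above the interquartile range for its length. The ratio of tkv (0.89, at 4433 bases) also lay above the range for its length, and that of Med (-0.30, at 3425 bases) below. For dpp (0.83, at 5214 bases) it lay at the upper end of the range for its length. The median fold change between genotypes was 1.30 for genes over 10000 bases, -0.0037 for those from 1000 to 2000 bases and 0.09 for those with up to 1000 bases.

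**Figure D3:**
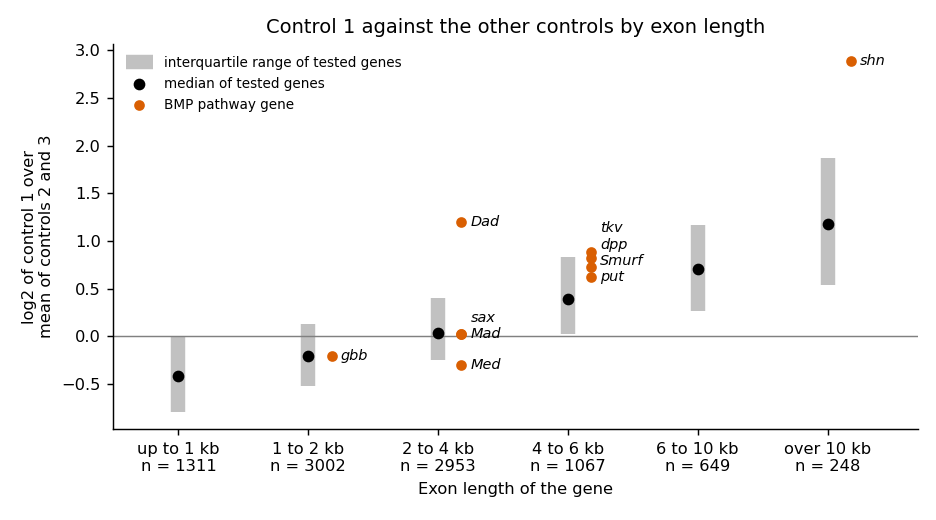
Log2 ratio of control 1 to the mean of controls 2 and 3 for tested genes in 6 classes of exon length, as median (black) and interquartile range (grey bar), with the BMP genes in orange. The medians climb from -0.42 to 1.18 with length, and shn, at 2.88, Dad, at 1.20, and tkv, at 0.89, lie above the ranges of their classes, with Med, at -0.30, below.

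When each library's trend with exon length was removed, an alternative chosen after seeing the data, the 4 called members kept their calls. The log2 fold changes were then 1.80 for dpp (adjusted p = 0.00349), 2.08 for gbb (adjusted p = 0.000579), 1.47 for Dad (adjusted p = 0.0114) and -0.73 for Mad (adjusted p = 0.00730). Smurf was called lower (-0.64, adjusted p = 0.0155), and shn at 1.41 (adjusted p = 0.0814) and tkv at 0.56 (adjusted p = 0.0512) were not called. This correction also takes out any real difference between genotypes that goes with length, and it moved the median of all tested genes from 0.11 to -0.09.

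Divided by exon length, the levels show how the transcripts of the pathway are balanced. In the control Mad was the most abundant member at 44.8 ± 1.31 CPM per kb, followed by Smurf (26.2 ± 8.23), sax (25.7 ± 1.07), put (20.8 ± 5.73), tkv (17.9 ± 6.93) and Med (16.9 ± 2.04). The ranges of those 5 genes over the controls overlapped from each gene to the next. Within each control library, however, Smurf was above put and put above tkv, and Mad stood above all of them. The ligands, shn and Dad were at the bottom, with gbb at 6.18 ± 1.54, shn at 4.36 ± 5.20, Dad at 3.89 ± 2.17 and dpp at 0.62 ± 0.26 CPM per kb. In the knockout the range was narrower: tkv (31.6 ± 1.66), Mad (30.1 ± 1.27), gbb (26.8 ± 0.25), sax (23.6 ± 2.99), Smurf (22.6 ± 1.37), put (22.4 ± 3.02) and shn (21.2 ± 0.46) lay within a factor of 1.5 of each other. Below them were Med (16.5 ± 1.18), Dad (12.3 ± 0.51) and dpp (2.85 ± 0.23). Among all tested genes ranked by CPM per kb, gbb stood at the 33.2th percentile in the control and the 70.9th in the knockout, and dpp at the 19.0th and the 22.8th.

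Ratios within a library need no scaling between libraries and were read as a description. They keep a trend with exon length that differs between libraries where the paired genes differ in length. This holds for shn (10997 bases) and Mad (3412 bases), and for tkv (4433 bases) and sax (2865 bases). The ratio of Dad to Mad, an inhibitory to a receptor-regulated Smad, was 0.432 and 0.384 in the knockout and 0.140, 0.0734 and 0.0473 in the control. The ratio of Mad to its partner Med was 1.87 and 1.79 in the knockout and 3.11, 2.47 and 2.48 in the control. Both sets of ratios were separate between genotypes, in opposite directions. The ratio of the type I receptors, tkv to sax, was 1.42 and 1.28 in the knockout and 0.989, 0.554 and 0.533 in the control, so that tkv exceeded sax per length in the knockout libraries and not in the controls. The ratio of gbb to dpp was 8.84 and 10.0 in the knockout and 6.11, 15.2 and 11.8 in the control, with no separation. The ligand genes together made up 14.5% and 13.7% of the summed CPM per kb of the 10 members in the knockout, against 3.29%, 5.43% and 3.67% in the control. With 2 libraries against 3, an exact permutation test of any such ratio cannot give a p below 0.1, and none was made.

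**Figure D4:**
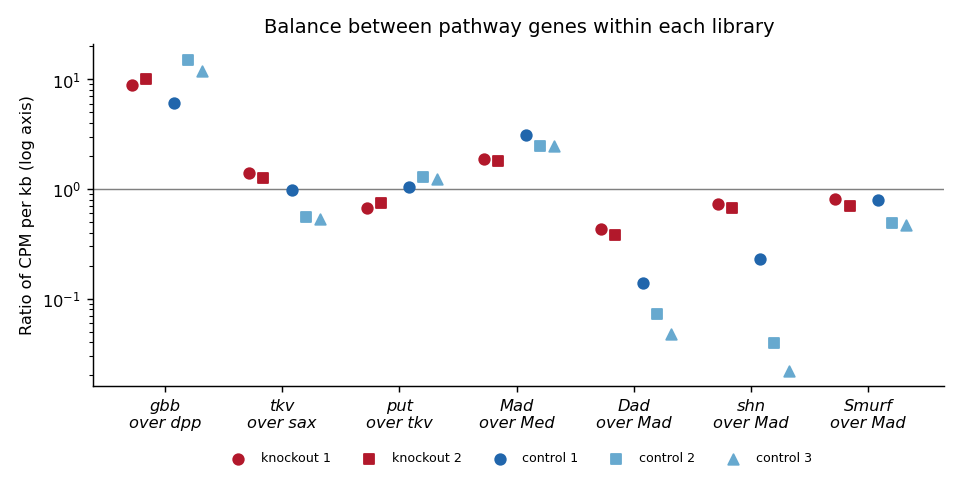
Ratios of CPM per kb between pairs of BMP genes (log axis) in each library, knockout in red and control in blue, with a line at equal levels. Dad over Mad and shn over Mad are higher in both knockout libraries than in any control, and gbb over dpp is not separated.

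By position, 5 of the 10 members have a protein-coding gene in divergent orientation whose 5′ end lies within 500 bases of their own, as have 32.9% of the 9128 tested protein-coding genes. The distances were 82 bases for gbb and ytr, 99 for sax and Nop17l, 52 for put and His4r, 307 for Mad and gkt, and 282 for Smurf and CG30105. The partner of gbb, ytr, was not called (0.28, SE 0.19, adjusted p = 0.275), although gbb rose. The partner of Mad, gkt, fell with it (-1.14, SE 0.21, adjusted p = 0.0102). CG30105 fell too (-1.40, SE 0.39, adjusted p = 0.0327) beside an uncalled Smurf. The genes dpp, tkv, Med, Dad and shn have no such neighbour, the nearest lying 7481 bases from tkv.

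Of the genes whose products act on BMP ligands outside the cell, 17 were listed and 15 tested. In the knockout 10 rose and 0 fell, where 22.7% of all tested genes were called higher and 18.7% lower, with a median log2 fold change of 2.28 beside 0.11 for all tested genes. The Dpp-binding type IV collagen genes Col4a1 and vkg went from 337 ± 58.2 to 3311 ± 628 CPM (3.35, SE 0.25, adjusted p = 0.000704) and from 200 ± 48.6 to 2247 ± 305 CPM (3.53, SE 0.27, adjusted p = 0.000746). The glypican dally, a heparan sulfate proteoglycan that holds Dpp at the cell surface and is needed in niche cells, went from 27.5 ± 7.93 to 200 ± 2.62 CPM (2.90, SE 0.27, adjusted p = 0.00113). The other glypican on the list, dlp, was lower in both knockout libraries than in any control but was not called (-0.81, SE 0.32, adjusted p = 0.0901). The secreted modulator nord went from 4.68 ± 1.20 to 74.4 ± 6.46 CPM (4.00, SE 0.26, adjusted p = 0.000553). magu, an extracellular regulator of Dpp spread also called pentagone, was not called (0.19, SE 0.18, adjusted p = 0.432). Leaving out knockout 1 gave 4 higher in place of 10, leaving out knockout 2 gave 5, and leaving out control 1 gave 11, with 9.46%, 11.1% and 68.6% of all tested genes called in those fits. There was 1 regulator called lower without control 1 or with depth class in the model, and 2 with the length trend removed. Of 6 enzymes of heparan sulfate synthesis 0 rose and 1 fell, near the 18.7% of all tested genes called lower. The gene that fell was Hs2st (-0.87, SE 0.18, adjusted p = 0.0129), and ttv was not called (0.43, SE 0.42, adjusted p = 0.436). The call of Hs2st was lost without knockout 1, without knockout 2 and with scaling over germline markers, which left 0 of the list lower. Without control 1 the list had 2 higher and 2 lower (68.6% of all tested genes called). With DESeq2 2 were lower (49.9%), and with the length trend removed 3 were lower (51.2%).

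Among the remaining ligands and receptors of the superfamily, the activin-type ligand daw rose from 3.96 ± 5.31 to 76.9 ± 17.1 CPM (4.12, SE 1.02, adjusted p = 0.0242) and the type II receptor wit rose from 7.33 ± 3.72 to 36.6 ± 2.78 CPM (2.37, SE 0.42, adjusted p = 0.00832). Neither call held without knockout 1 or without knockout 2, and that of daw was also lost without control 3 (adjusted p = 0.0603) and with no filter on low counts (adjusted p = 0.0650). Without control 1 the fold change of daw was 6.37 (adjusted p = 4.24e-07). The ligand gene myo (-0.31, SE 0.27, adjusted p = 0.393) and Smox, the activin-type Smad (0.38, SE 0.20, adjusted p = 0.180), were not called. The ligand gene scw was at 0 in every library and Actbeta at 0.464 CPM or less, too low to be tested.

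Of 10 intracellular regulators 1 was higher and 2 were lower, beside the 22.7% and 18.7% of all tested genes. Snoo, a Ski/Sno family protein that binds Smads, rose (1.55, SE 0.22, adjusted p = 0.00391), but was not called without knockout 1 (1.35, adjusted p = 0.0612) or with the length trend removed (0.57, adjusted p = 0.0826). The translational repressor brat, which acts on Mad messages in differentiating germ cells, fell from a control level of 501 ± 39.5 CPM to 145 ± 7.52 CPM (-1.75, SE 0.18, adjusted p = 0.00148), and was at -3.39 with the length trend removed. Ote, the nuclear envelope protein otefin that binds Medea at bam, fell from a control level of 81.0 ± 8.99 CPM to 40.3 ± 1.34 CPM (-0.96, SE 0.16, adjusted p = 0.00730). The call of Ote was lost without knockout 1 (-1.03) or without knockout 2 (-0.93). The nuclear import factor msk was not called (-0.22, SE 0.21, adjusted p = 0.433). Of all tested genes 68.6% were called without control 1, 54.7% with depth class in the model and 51.2% with the length trend removed. Without knockout 1, 0 of this list were higher and 1 was lower, without knockout 2 it was 1 and 1, without control 1 it was 2 and 2, with depth class in the model 3 and 3, and with the length trend removed 0 were higher and 4 lower.

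The pathway's target genes were led by bam, the gene that Mad and Medea silence in the stem cell. bam was at 9.17 and 9.16 CPM in the knockout libraries and at 38.6, 49.2 and 48.5 CPM in the control, and fell (-2.26, SE 0.19, adjusted p = 0.000893). The knockout libraries were alike and all controls lay far above them. bgcn, the partner of bam, was at 11.7 and 23.8 CPM in the knockout libraries and at 0.68, 0 and 0.10 CPM in the control, and rose (5.61, SE 0.92, adjusted p = 0.00648). With controls at or near 0 the size of this fold is poorly fixed: it was 8.29 without control 1, and bgcn was no longer called when knockout 1 (6.04, adjusted p = 0.0524) or knockout 2 (5.28, adjusted p = 0.0769) was left out. Of 10 genes on the target list 7 were tested, with 4 higher and 1 lower, beside 22.7% and 18.7% of all tested genes. The list pools bam, which the pathway silences, with bgcn and other genes, so these counts were not read as a response of the pathway. One of those higher, salm, was near the floor, at 0.70 and 0.33 CPM in the knockout libraries and at 0.02, 0 and 0 CPM in the control. Like bgcn, salm passed the filter on low counts through the knockout libraries, so these genes could hardly come out lower. The zinc finger gene peb (3.10, SE 0.27, adjusted p = 0.000960) and the peptidase gene Ance (1.21, SE 0.24, adjusted p = 0.0125) were among those that rose. The call of Ance was lost without knockout 1 (1.19) or without knockout 2 (1.18). The gene bun, a target in anterior follicle cells, was not called (0.17, SE 0.17, adjusted p = 0.466) except with the length trend removed. There it was lower (-1.50, adjusted p = 0.0310) and 2 targets were lower in all. The count of higher targets was 1 without knockout 1 or without knockout 2.

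The niche list had 12 of 13 tested members higher and 0 lower, beside 22.7% and 18.7% of all tested genes, with a median of 3.30. Its members bab1, bab2, upd3 and hh, at 1.95 CPM or less in every control, passed the filter on low counts through the knockout libraries. These genes could hardly come out lower, and the count tested and the median include them. Its summed level was 944 and 1045 CPM in the knockout against 332 to 436 CPM in the control. The largest parts of this sum were piwi and tj. The knockout and control means were 458 ± 22.3 and 178 ± 47.9 CPM for piwi (1.40, SE 0.26, adjusted p = 0.00936). For tj they were 266 ± 25.5 and 137 ± 12.8 CPM (0.99, SE 0.16, adjusted p = 0.00598). The sum therefore says little about low members such as upd1, whose knockout libraries held 9.99 and 8.24 CPM. Wnt4, of the escort cells beside the stem cells, rose (4.16, SE 0.43, adjusted p = 0.00157), as did fs(1)Yb, a somatic factor of the piRNA pathway (4.31, SE 0.48, adjusted p = 0.00194). The defining transcription factors of terminal filament and cap cells, en and inv, were at 0.314 CPM or less in every library. The germline list summed to 5510 and 6027 CPM in the knockout libraries and to 11233 to 11986 CPM in the control, but its median log2 fold change was -0.06. Most of the gap in the sum lay in me31B, at 2781 ± 382 CPM in the control and 502 ± 57.8 CPM in the knockout (-2.43, SE 0.19, adjusted p = 0.000781), and tral, at 3657 ± 268 and 965 ± 42.4 CPM (-1.88, SE 0.18, adjusted p = 0.00129). Of its 21 tested genes 4 were higher, close to the 22.7% of all tested genes, and 7 lower, beside 18.7%. The 4 that rose, named after their values were seen, were qin (2.31, adjusted p = 0.0200), cuff (1.69, adjusted p = 0.0427), spn-E (1.22, adjusted p = 0.0172) and shu (0.86, adjusted p = 0.0381).

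Other somatic markers were read in the same way, beside the 22.7% of all tested genes called higher and the 18.7% called lower. The follicle cell list had 9 of 14 higher and 2 lower, with eya higher (3.43, SE 0.22, adjusted p = 0.000516) and the eggshell gene Vm26Aa lower (-5.59, SE 0.22, adjusted p = 0.000240), and its summed level was 4847 to 5596 CPM in the knockout libraries and 6175 to 10045 CPM in the control. Muscle markers were higher in 12 of 14 cases, Mlc2 (2.57, SE 0.18, adjusted p = 0.000633) and Tm2 (2.71, SE 0.20, adjusted p = 0.000661) among them, and summed to 5876 and 5764 CPM against 1010 to 1340 CPM. Hemocyte and fat body markers were higher in 3 of 7 cases, with Pxn (4.37, SE 0.37, adjusted p = 0.000918) and Hml (2.68, SE 0.58, adjusted p = 0.0155), and summed to 398 and 359 CPM against 101 to 118 CPM, while He was at 0.021 CPM or less in every library. The call of Hml was lost without knockout 1 (2.54) or without knockout 2 (2.82). Of the neuron markers 1 of 5 was higher, elav (1.95, SE 0.25, adjusted p = 0.00277), a share near the 22.7% of all tested genes. The marker brp, low in all libraries, was lower in both knockout libraries than in any control but was not called (-2.71, SE 0.98, adjusted p = 0.0713). The markers nSyb and para passed the filter on low counts through the knockout libraries. elav was not called without knockout 1 (1.83, adjusted p = 0.0577) or with the length trend removed (0.57, adjusted p = 0.306). The neuron markers summed to 105 and 103 CPM against 52.2 to 76.2 CPM. Without knockout 1 the niche list had 3 higher, the follicle list 3, the muscle list 8 and the germline list 0 (with 2 lower), and without knockout 2 these were 4, 3, 9 and 0 (with 3 lower). Without control 1 they were 12, 10, 14 and 8 (with 9 lower), where 68.6% of all tested genes were called. The follicle list had 5 higher without control 2 (31.4% of all tested genes called) or control 3 (32.1%). The shares of all tested genes called in the other fits stand with the member counts above. The germline list had 1 higher without control 2 and 2 without control 3, and 4 lower when its own genes set the scaling. The neuron list had 4 higher without control 1 and 0 without knockout 1 or with the length trend removed, and the hemocyte and fat body list had 5 higher with DESeq2 and 1 without knockout 1. The part of the cell makeup in the values of dpp, gbb, Dad, Mad and the other BMP genes was not tested.

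**Figure D5:**
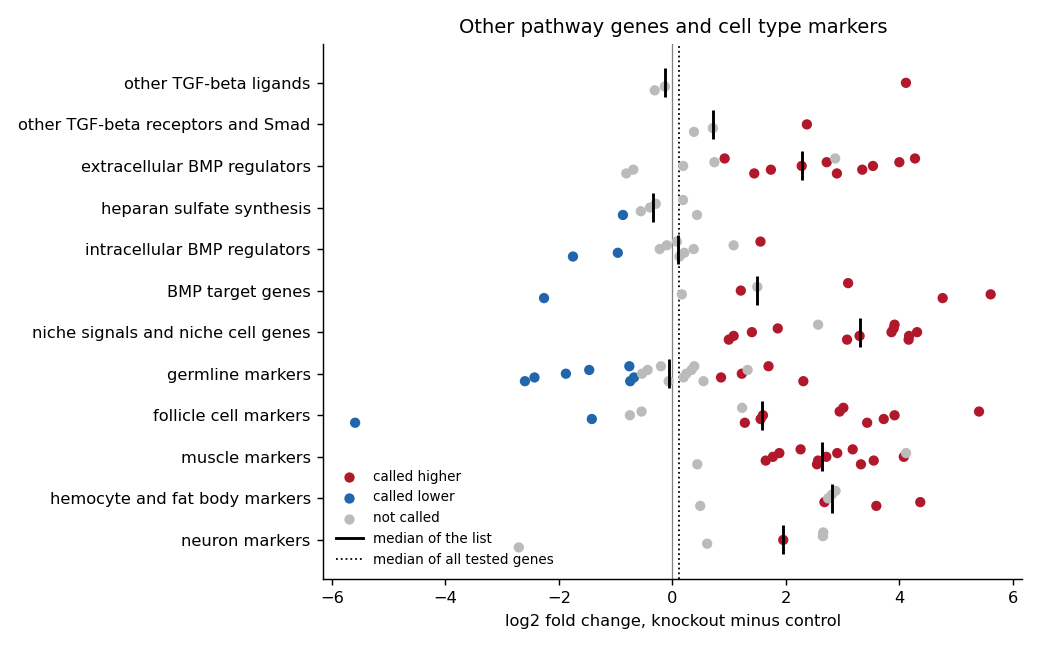
Log2 fold change, knockout minus control, of each tested gene in the lists of other pathway genes and of cell type markers, with called genes in colour, the list median as a bar and the median of all tested genes (0.11) as a dotted line. The extracellular regulators, niche genes and muscle markers lie mostly above 0, and the intracellular regulators and germline markers lie on both sides.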

How the data were processed

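RNA of whole ovaries, extracted with Trizol and made into directional libraries per the labels' protocols, was quantified by the authors. The submitters' processing notes name FastQC 0.11.8, Trim Galore 0.6.6, STAR 2.7.5b, Salmon 1.2.1 and the dm6 build. The annotation and strand setting are not given in the sources used here. The deposited table holds unscaled estimated counts by gene for 5 libraries, matched to samples by their descriptions, and groups came from the titles. The series text speaks of duplicates, but all 2 knockout and 3 control libraries were used.

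Estimated counts were rounded, filtered with filterByExpr (9241 of 14094 genes kept), scaled by TMM and fitted with edgeR 4.0.16 (robust glmQLFit and glmQLFTest, no covariate) in R 4.3.3. SE is the fold change over the square root of F. CPM used column totals, and CPM per kb the union of exons in Ensembl 115 (BDGP6.54, dm6 coordinates), which held 14048 of the 14094 identifiers. A further 29 were matched by symbol, Med among them. Ratios between control libraries used a pseudocount of 0.5 CPM. The germline scaling used 21 listed genes, cup being not used here. Depth class split libraries at 20000000 counts. DESeq2 1.42.0 and limma 3.58.1 were alternatives, and the fits were checked on simulated counts. The simulation had less variation between libraries than these data and no length trend, so it does not cover the gap of control 1. Depth limits low genes: 3 counts are 0.0628 CPM at the greatest depth and 0.355 CPM at the lowest. A gene near 0 in the controls passed the filter only through the knockout libraries and could hardly be called lower.

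The members and lists were chosen with earlier results of these data known. Named genes were all members, BEAF-32 and bam, from each pathway list up to 4 called genes with the smallest p and the uncalled gene with the highest CPM, and from each marker list the 2 called genes with the smallest p. Genes named outside the rule (neighbours and overlapping genes, genes at or near 0 or low in the control, dlp, brp, piwi, tj, and the germline markers that rose) were chosen after their values were seen.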

Additional observations from a re-analysis of the deposited data

How the results depend on the processing

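Of 140 member fold changes recomputed under 14 alternatives, 105 kept their direction and their side of the threshold, 13 lost a call, 9 gained one and 13 changed sign. The sign changes concerned sax, put, Med and Smurf, none of them called in the comparison over all libraries, and their cause was not tested. With scaling over germline markers, which moved the median of all tested genes by 0.26, sax was at 0.18, Smurf at 0.095 and 0 members were called lower; 70.5% of all calls were then higher, against 54.9%. With depth class in the model put was at -0.26 and 2 members were called lower. Med was at -0.031 when scaled by library totals and at -0.044 with no filter on low counts, where the median of all genes moved by 0.16. With the length trend removed put was at -0.11, Med at -0.20 and 2 members were called lower, and 43.0% of all calls were higher. With 1 library left out, put ran from -0.075 to 0.40, Med from -0.081 to 0.033 and Smurf from -0.41 to 0.13, 1 to 6 members were called higher and 0 to 1 lower, and 878 to 6083 genes were called in all. The lowest counts were without a knockout library, which leaves a lone knockout sample assumed to vary like the controls. Members called higher numbered 2 with no filter, where Dad was lost (1.59, adjusted p = 0.0532 by edgeR). With the replicate number as a block, 0 members were called lower (Mad at -0.51, adjusted p = 0.175 by edgeR), 4 were called higher (tkv among them at 0.74, adjusted p = 0.0483) and 3261 genes, 35.3%, were called in all, daw (4.33, adjusted p = 0.372) not among them. Deviations of same-numbered libraries from their group means correlated at 0.06 and 0.05 over 2 pairs. With 2 knockout libraries their deviations are equal and opposite, so these values cannot decide on pairing. The labels state no pairing, and the numbers were not taken to pair the samples. Of 336 list counts, 272 were within 1.5 times the value given. Depth limits dpp, bgcn and other genes near the floor of controls 2 and 3.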
